A study of Homo sapiens with 6 samples.

Results

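The cytosolic ribosomal protein genes encode the proteins that, with the ribosomal RNAs, form the small and the large subunit of the ribosome that translates nuclear mRNAs. Members were taken by symbol: RPL or RPS, a number and at most one of the letters A, X or L, with RPLP0, RPLP1, RPLP2 and RPSA. In all, 81 of the 53826 entries were members, 49 named for the large and 32 for the small subunit, and no member symbol was listed more than once. The mRNA of PK-1 and Panc-1, established cell lines of human pancreatic ductal adenocarcinoma (PDAC), was sequenced. Cells of each line were either controls or had received RARγi-1, which is LY2955303, or RARγi-2, which is MM11253, for 24 h, and both compounds are antagonists of the retinoic acid receptor RARγ. Each of the 6 conditions has 1 library, and neither the doses nor the vehicle of the control are stated for the RNA-seq. Values of the inhibitors are therefore set side by side and were not compared with each other. The treatment entry of both RARγi-2 libraries reads RARγi-1, and they were assigned by their titles.

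Most human ribosomal protein mRNAs belong to the TOP class (terminal oligopyrimidine): they start with a C that is followed by an unbroken run of pyrimidines (C or T in the DNA). This start lets the cell hold back or release the translation of the whole class according to nutrients and growth signals, through mTOR and LARP1, without a change in mRNA level. Ribosomal protein mRNAs are long-lived and among the most abundant of growing cells, and their proteins are needed in equal numbers, except the stalk proteins. RNA-seq shows the mRNA side only.

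The windows below show transcription starts of members on which the results turn, as 30 bases of the RefSeq reference (GRCh38.p14), 15 before the start and 15 from the start on, read 5′ to 3′ on the strand of the gene. Capitals mark the pyrimidine run from the first transcribed base where that base is C and at least 4 pyrimidines follow it. A window with no capitals had no such start.

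RPS16, chr19:39435935-39435964, minus strand: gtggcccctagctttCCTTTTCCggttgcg
RPLP1, chr15:69452803-69452832, plus strand: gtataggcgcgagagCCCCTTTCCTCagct
RPL7A, chr9:133348203-133348232, plus strand: ccacaattccctttcCTTTCTCTCTCCTCC
RPL12, chr9:127451392-127451421, minus strand: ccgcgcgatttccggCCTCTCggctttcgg
RPL22, chr1:6199581-6199610, minus strand: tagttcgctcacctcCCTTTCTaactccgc
RPL36A, chrX:101390996-101391025, plus strand: tttgcctcgcggtttCTTTCTTTCCgcgcc
RPL10, chrX:154398362-154398391, plus strand: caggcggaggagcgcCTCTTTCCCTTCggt
RPL10L, chr14:46651767-46651796, minus strand: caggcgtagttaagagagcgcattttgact
RPS27, chr1:153990747-153990776, plus strand: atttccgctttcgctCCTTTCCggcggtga
RPS27L, chr15:63157463-63157492, minus strand: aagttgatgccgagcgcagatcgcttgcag
RPS26, chr12:56041903-56041932, plus strand: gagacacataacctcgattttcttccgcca

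RPS16 and RPLP1 were the most abundant members, RPL7A, RPL12, RPL22, RPL36A and RPS26 are described below for their fold changes, and the RPL10 and RPS27 windows stand beside those of their paralogs RPL10L and RPS27L. The RPL10 window is 1 of 3 starts in the table, and the run of RPL7A goes on past its window to 16 bases. Of the 64 members with a start in the table, 46 (71.9%) had a TOP start at 1 or more of their starts. The same start was found, on the strand of the gene, in 1404 of 27305 genes of the table (5.14%) and in 128 of 1346 other genes (9.51%) with a mean of at least 100 TPM. RPS26 and the paralogs RPL10L and RPS27L had none. The windows describe the reference only, since the starts used in these cells were not measured.

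Values were deposited as log2 TPM, a transcript abundance scaled for length and to one total, with 1 TPM as the floor. The read number behind a TPM value is lost, so the depth is unknown and no interval is given. Series of 3 TPM values are given for each line in the order control, RARγi-1, RARγi-2. Fold changes are given on the log2 scale, treated over control of the same line, after adding 1 TPM to each value. Both comparisons of a line share the control library. With 1 library per condition, a difference within a line has no replicate check and no p-value, and a fit that takes the lines as replicates is given below. Variation was gauged from the treated libraries of a line, as the robust standard deviation of their difference (a scaled median absolute deviation), which also holds real differences between the inhibitors. For the fold change of a single entry it came to 0.41 in PK-1 and 0.32 in Panc-1 on the log2 scale over entries of at least 5 TPM in the line, and to 0.14 and 0.08 over the members. Keratin genes KRT8, KRT18 and KRT19 were present in all 6 libraries, with the lowest value for KRT19 in Panc-1 RARγi-2 (157 TPM). Every treated library held less of these keratins than its control. Their log2 fold changes lay between -3.21 and -1.99 for Panc-1, and for PK-1 between -0.92 and -0.11. The epithelial marker EPCAM was at 578, 552 and 497 TPM in PK-1. Its Panc-1 values were far lower, at 13.4, 19.4 and 9.18 TPM. The adhesion gene CDH1 was listed between 170 and 385 TPM in PK-1 and at the floor in Panc-1. Of the 10 markers of leukocytes, endothelium, fibroblasts, acinar and islet cells, 9 were at the floor in all 6 libraries, and the acinar gene PRSS1 reached 21.2 TPM in PK-1 RARγi-2.

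The members held a large part of all TPM in every library. Their share was 15.6%, 14.1% and 15.2% in the PK-1 libraries and 16.5%, 16.1% and 16.5% in those of Panc-1. As a percent of the control's share, the difference from the control was -9.90% in PK-1 RARγi-1, -2.77% in PK-1 RARγi-2, -2.29% in Panc-1 RARγi-1 and 0.418% in Panc-1 RARγi-2. The PK-1 RARγi-1 library thus held the lowest share of the 6. TPM are relative values, so a smaller share and less ribosomal protein mRNA per cell cannot be told apart. The RPS2 difference equalled 21.7% of the net difference of the summed TPM in PK-1 RARγi-1 and 62.2% in PK-1 RARγi-2. In Panc-1 it equalled -22.8% with RARγi-1 and 100.1% with RARγi-2. Rises and falls of members cancel in the net difference, so these are not shares of all the change. Mitochondrial ribosomal protein genes, 78 genes for the ribosome inside mitochondria, held 0.891%, 0.701% and 0.605% in the PK-1 libraries and 1.11%, 0.984% and 0.914% in those of Panc-1.

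**Figure D1:**
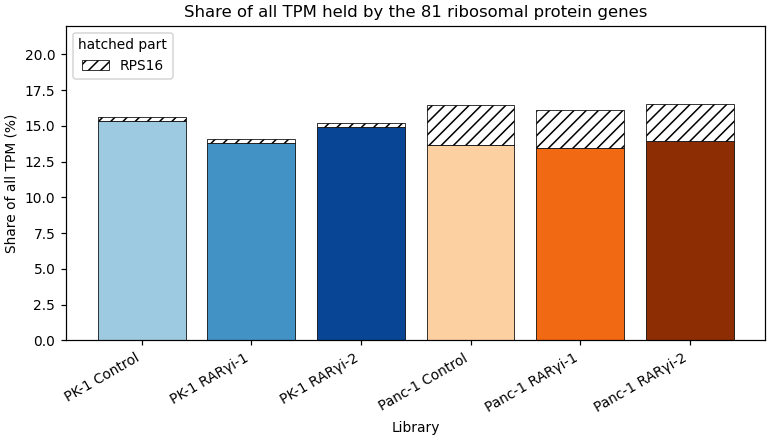
Bars give the share of all TPM (%) held by the 81 ribosomal protein genes in each of the 6 libraries, with the part held by RPS16 hatched. The family's share lies between 14.1% and 16.5%, and RPS16 takes 0.238% to 0.257% of all TPM in PK-1 and 2.60% to 2.81% in Panc-1.

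The similar shares of the cell lines hid a difference in makeup. RPS16, a small subunit protein whose tail reaches the peptidyl tRNA, was at 2471, 2596 and 2672 TPM in PK-1 and at 29221, 27868 and 27004 TPM in Panc-1. All 3 Panc-1 libraries lay far above all 3 PK-1 libraries. RPS16 thus made up 1.52% to 1.78% of the TPM of the family in PK-1 and 15.7% to 17.1% in Panc-1. With RPS16 left out of the family and of the total, the shares were 15.4%, 13.8% and 14.95% in the PK-1 libraries and 14.1%, 13.8% and 14.3% in those of Panc-1, which turns the order of the control libraries. Small subunit members took 38.7% to 39.7% of the family's TPM in PK-1 and 50.98% to 51.8% in Panc-1, and, without RPS16, 37.6% to 38.8% and 41.8% to 42.2%.

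Of the 81 members, 79 were above the floor in at least 1 library. The other two, RPL3L and RPL10L, which are known as paralogs of striated muscle and of testis, were at the floor in all 6. The median member was at 1877, 1737 and 1878 TPM in PK-1 and at 1581, 1517 and 1622 TPM in Panc-1. Between 57 and 63 members per library were above 1000 TPM. Between 44 and 53 of the 100 highest entries of a library were members. The highest means over the 6 libraries belonged to RPS16, the stalk protein RPLP1 and RPS2, and the lowest above the floor to RPL39L and RPS27L. These paralogs departed from the family by level, with a mean more than 10 times under that of the median member in both lines, as did RPL3L and RPL10L.

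**Figure D2:**
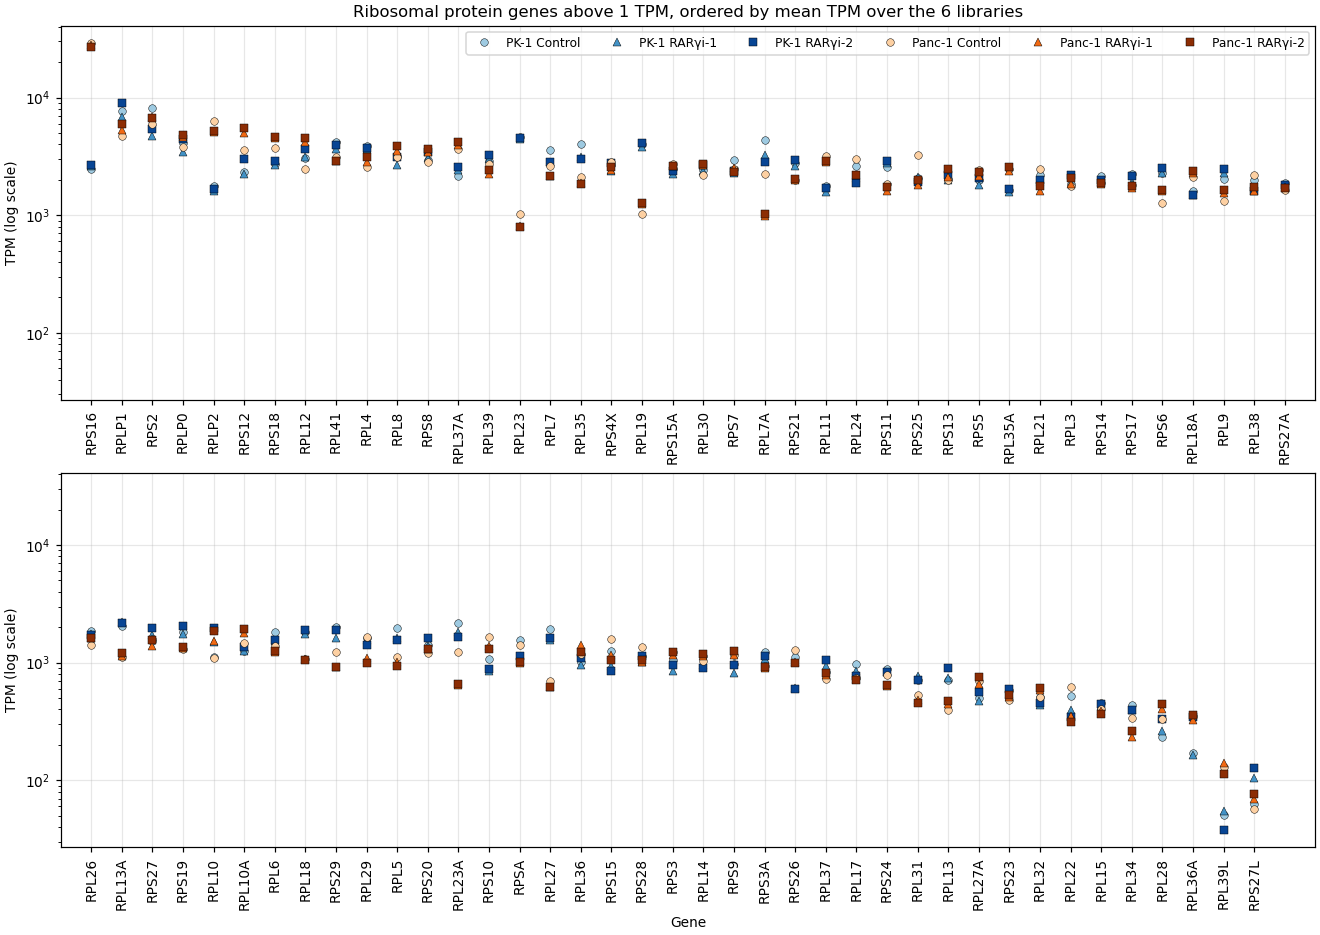
Each column is 1 of the 79 ribosomal protein genes above 1 TPM in at least 1 library, ordered by mean TPM, and each point is its TPM (log scale) in 1 library, blue for PK-1 and orange for Panc-1. Most members lie above 1000 TPM with their libraries close together, RPS16 of Panc-1 stands far above the rest at 27004 to 29221, and RPL39L and RPS27L close the row.

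The question of the treatment comparisons is what RARγ inhibition changed in PDAC cells. In both lines most members stayed close to their control on the deposited TPM scale. Of the 79 members above the floor, 60 lay within 1.2-fold of the control in PK-1 RARγi-1, 52 in PK-1 RARγi-2, 50 in Panc-1 RARγi-1 and 43 in Panc-1 RARγi-2. Of all entries above the floor in the line, 5124 and 4055 of 14269 did so in PK-1 and 5272 and 4666 of 14184 in Panc-1. Of 1619 other entries with a mean of at least 100 TPM, 561, 430, 576 and 492 did. These counts were not taken after rescaling the libraries by median ratios. That rescaling moved the members' median log2 fold change in PK-1 RARγi-1 from -0.10 to -0.23. RPLP0 and RPL8, within 1.2-fold in that comparison as deposited, then lay outside it, at -0.39 each. The count of 60 thus depends on the scale. The median member's highest library was 1.18 times its lowest in PK-1 and 1.19 times in Panc-1, and 71 members in PK-1 and 69 in Panc-1 kept this ratio under 1.5. This ratio was not taken over other entries.

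Past 2-fold, 0 members were lower in PK-1 RARγi-1 (4.85% of all entries above the floor in the line were lower past this limit) and 0 were higher (9.05%). In PK-1 RARγi-2, 0 were lower (12.3%) and 2 were higher (11.9%), RPL36A and RPS27L. In Panc-1 RARγi-1, 1 was lower (5.96%), RPL7A, and 0 were higher (7.3%). In Panc-1 RARγi-2, 1 was lower (11%), RPL7A again, and 0 were higher (8.34%). Every one of these counts was at or under 2 of 79, below its background share. Of other entries with a mean of at least 100 TPM, which are nearer to the members in level, 4.63%, 12.6%, 5.93% and 9.82% were lower, close to the shares of all entries, and 11.7%, 16.4%, 10% and 14.1% were higher, above those shares, in the same order of comparisons.

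A limit of 1.5-fold gave the same picture with more names. Lower past 1.5-fold were 2 members in PK-1 RARγi-1 (background 11.8%), 4 in PK-1 RARγi-2 (22.6%), 6 in Panc-1 RARγi-1 (13.6%) and 6 in Panc-1 RARγi-2 (21.2%). Higher were 1 (22.1%), 3 (23%), 1 (19%) and 3 (18%). These calls fell on 14 different members.

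The median fold change of the members was -0.10 in PK-1 RARγi-1, -0.04 in PK-1 RARγi-2, -0.04 in Panc-1 RARγi-1 and -0.01 in Panc-1 RARγi-2, all on the log2 scale. The same medians over all entries above the floor were 0.13, 0.01, 0.08 and -0.01, and over other entries of at least 100 TPM 0.06, 0.00, 0.01 and -0.01. The family median was thus under that of all entries in both RARγi-1 libraries and near it in the RARγi-2 libraries. In PK-1 RARγi-1, 60 of 79 members were below the control, where 38.3% of all entries were. In the other comparisons the number below was 43 (background 47.8%), 45 (42.9%) and 42 (50.7%). Rescaling the libraries by median ratios moved the median of the members to -0.23, -0.01, -0.14 and -0.00 and left 70, 41, 53 and 40 members below the control. The median of all entries came to 0.02, 0.04, -0.00 and -0.01. Of all entries, 6899 and 6612 of 14269 in PK-1 and 7139 and 7136 of 14184 in Panc-1 were then below the control. The spread over the members, as robust standard deviation, was 0.20, 0.24, 0.31 and 0.35, against 0.63, 0.88, 0.59 and 0.74 over other entries of at least 100 TPM.

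A fit over both lines, with the line as a block and the treatment as the factor of interest, has 2 residual degrees of freedom among the 6 libraries. It takes the lines as replicates, so that what differs between them in the response counts as error. By limma with Benjamini-Hochberg adjustment over 15654 entries, 1 member was higher with RARγi-2 (6.43% of all entries were) and 1 was lower (6.32%). The higher member was RPL10, with a mean log2 fold change of 0.78 ± 0.13 (SE; adjusted p by limma 0.033), higher in both lines. The lower member was RPS15, with -0.59 ± 0.12 (SE; adjusted p by limma 0.049), lower in both lines. With RARγi-1, limma called 0 of the 79 members and 0 of all 15654 entries. The 0 for all entries depended on the filter. With entries that never reached 5 TPM left out, limma called 192 entries lower and 430 higher with RARγi-1, and still 0 members. Without that filter, an unadjusted p under 0.05 by limma gave 7 of the 79 members lower and 1 higher with RARγi-1. With RARγi-2 it gave 7 lower and 3 higher. Over all 15654 entries the same limit gave 1247 lower and 2436 higher with RARγi-1, and 2534 lower and 2482 higher with RARγi-2. Adjusted p ranged from 0.013 to 0.29 for RPL10 and from 0.025 to 0.31 for RPS15 over other settings, and neither was called once any 1 of the 6 libraries was left out, when 0 of all entries were called.

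**Figure D3:**
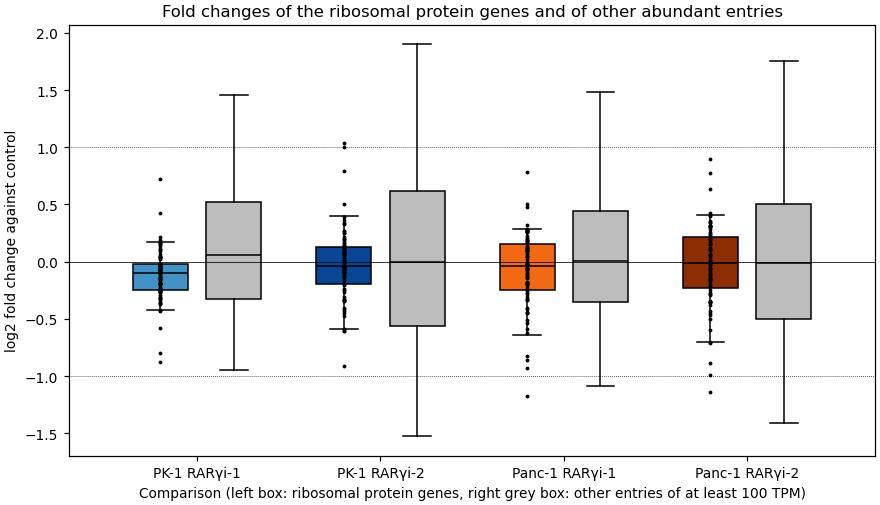
For each of the 4 comparisons, the left box and points show the log2 fold changes of the 79 ribosomal protein genes and the right grey box those of 1619 other entries with a mean of at least 100 TPM; boxes span the quartiles with the median, whiskers the 5th to the 95th percentile, and dotted lines mark 2-fold. The coloured boxes are narrower in all 4 comparisons, with medians from -0.10 to -0.01.

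Large and small subunit members had similar medians. Those of the 47 large subunit members were -0.10, -0.05, -0.02 and 0.02, and those of the 32 small subunit members were -0.13, -0.01, -0.05 and -0.01, in PK-1 RARγi-1, PK-1 RARγi-2, Panc-1 RARγi-1 and Panc-1 RARγi-2. Members with a TOP start (46) had medians of -0.08, 0.01, -0.06 and 0.01, and members above the floor without one (17) had -0.16, -0.06, -0.02 and -0.08. The medians of either split lay close to each other in all 4 comparisons. The 8 proteins at the wall and rim of the exit tunnel, through which the new chain leaves the ribosome, had medians of -0.08, -0.08, -0.08 and -0.10. The 19 members listed here as Diamond-Blackfan anemia genes, in which loss of 1 copy limits red cell formation, had medians of -0.16, -0.07, -0.14 and -0.16. Below the control were 17, 14, 16 and 16 of them. The same held for 60, 43, 45 and 42 of the 79 members of the family and for 38.3%, 47.8%, 42.9% and 50.7% of all entries. The list was set by hand and may leave out other such genes, so these counts hold for the listed genes only.

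The P stalk recruits the elongation factors to the large subunit, and RPLP0 anchors on it the acidic proteins RPLP1 and RPLP2. RPLP0 was at 4130, 3451 and 4419 TPM in PK-1 and at 3834, 4607 and 4759 TPM in Panc-1. RPLP1 was at 7756, 6804 and 8904 TPM in PK-1 and at 4706, 5333 and 5999 TPM in Panc-1. RPLP2 was at 1766, 1606 and 1680 TPM in PK-1 and at 6361, 5143 and 5204 TPM in Panc-1. RPLP0 and RPLP1 were lower than the control in PK-1 RARγi-1 alone and higher in the other treated libraries, whereas RPLP2 was lower in all 4. No stalk gene passed 1.5-fold. RPLP1 exceeded RPLP2 in every PK-1 library and in the treated Panc-1 libraries, and was under it in the Panc-1 control.

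RPL5 and RPL11 bind the smallest ribosomal RNA of the large subunit and, when ribosome assembly fails, bind MDM2 and so raise p53. RPL5 was at 1967, 1633 and 1572 TPM in PK-1 and at 1115, 1016 and 941 TPM in Panc-1. RPL11 was at 1787, 1572 and 1704 TPM in PK-1 and at 3207, 2819 and 2867 TPM in Panc-1. Both were below the control in all 4 treated libraries, with fold changes from -0.32 to -0.07 on the log2 scale.

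In the small subunit, RPS2, a protein of the mRNA entry, was at 8225, 4728 and 5390.5 TPM in PK-1 and at 5910, 6814 and 6639 TPM in Panc-1. It was the most abundant member of the PK-1 control library and stood below that library in both treated PK-1 libraries, with fold changes of -0.80 and -0.61, while both treated Panc-1 libraries were above their control (0.21 and 0.17). RPS26, at the mRNA exit, was at 1119, 608 and 595 TPM in PK-1 and at 1276, 1011 and 1001 TPM in Panc-1. RPS26 departed from the family in PK-1, with fold changes of -0.88 and -0.91. In Panc-1 the same gene was at -0.34 and -0.35, which did not depart.

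RPSA, also known as the laminin receptor, was at 1545, 1036 and 1131 TPM in PK-1 and at 1420, 995 and 1005 TPM in Panc-1. Its fold changes were -0.58 and -0.45 for PK-1 and -0.51 and -0.50 for Panc-1. The 4 values were close to each other and short of 1.5-fold. After rescaling by median ratios they were -0.71, -0.41, -0.61 and -0.49, and RPSA was then lower past 1.5-fold in the RARγi-1 library of both lines. RPS15, another small subunit gene, was at 1267, 944 and 844 TPM in PK-1 and at 1582, 1169 and 1045 TPM in Panc-1, and was below 1.5-fold of its control in the RARγi-2 library of both lines. RPS6, RPS19 and RPS3 moved less. RPS6, the substrate of the S6 kinases downstream of mTOR, had fold changes of -0.02 and 0.12 for PK-1 and 0.32 and 0.34 for Panc-1. RPS19, the gene most often mutated in Diamond-Blackfan anemia, stayed between -0.06 and 0.16, and RPS3, which also takes part in DNA repair, between -0.32 and -0.01. RPS27A, made as a fusion with ubiquitin, was at 1877, 1703 and 1796 TPM in PK-1 and at 1632, 1739 and 1703 TPM in Panc-1, and its fold changes lay between -0.14 and 0.09.

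Among large subunit members, RPL7A was the lowest by mean fold change. It was at 4345, 3221 and 2855 TPM in PK-1 and at 2232, 990 and 1014 TPM in Panc-1. Every treated library was below its control, with fold changes of -0.43 and -0.61 for PK-1 and -1.17 and -1.14 for Panc-1, and in Panc-1 it was the only member that departed from the family. RPL7A hosts 4 small nucleolar RNAs in the GENCODE 29 annotation, SNORD24, SNORD36A, SNORD36B and SNORD36C, which guide the methylation of ribosomal RNA.

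RPL22 followed. RPL22, whose product also regulates the splicing and level of its paralog's mRNA, was at 516, 398 and 344 TPM in PK-1 and at 623, 351 and 314 TPM in Panc-1. The fold changes were -0.37 and -0.58 for PK-1 and -0.82 and -0.99 for Panc-1. Its paralog RPL22L1, which the symbol rule does not take, was at 38.4, 37.6 and 42.3 TPM in PK-1 and at 36.8, 81.5 and 77.3 TPM in Panc-1. Thus RPL22 was lower in all 4 treated libraries, and RPL22L1 was past 2-fold higher in both treated libraries of Panc-1 and within 1.2-fold of the control in those of PK-1.

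RPL23A, a docking site for nascent chain factors at the tunnel exit, was at 2186, 1821 and 1653 TPM in PK-1 and at 1222, 640 and 662 TPM in Panc-1. Its fold changes were -0.26 and -0.40 for PK-1 and -0.93 and -0.88 for Panc-1. RPL29, RPL21 and RPS25 were also lower past 1.5-fold in at least 1 treated library of Panc-1, and the difference from PK-1 was not tested. RPL21 has a processed copy, RPL21P28, which the tables list at 123 to 168 TPM. RPS25, which many viral internal ribosome entry sites need, was at 3254, 1793 and 1999 TPM in Panc-1 and at 2053, 2100 and 1927 TPM in PK-1.

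Members above their control were fewer. RPL10, which completes the peptidyl transferase site late in assembly, was at 1127, 1512 and 1954 TPM in PK-1 and at 1092, 1517 and 1865 TPM in Panc-1. The lines had nearly the same value at each condition, and the fold changes were 0.42 and 0.79 for PK-1 and 0.47 and 0.77 for Panc-1. RPL10 had the highest mean fold change of all members above 10 TPM. RPL12, at the stalk base, was at 3039, 3131 and 3667 TPM in PK-1 and at 2460, 4226 and 4573 TPM in Panc-1, with fold changes of 0.04, 0.27, 0.78 and 0.89. RPS12 was at 2313, 2259 and 2984 TPM in PK-1 and at 3549, 5020 and 5525 TPM in Panc-1. The fold changes of RPS12 were -0.03, 0.37, 0.50 and 0.64. RPL12 and RPS12 thus had higher fold changes in Panc-1 than in PK-1, a difference that was not tested, and in PK-1 RARγi-1 RPS12 was slightly below its control and RPL12 turned to -0.09 after rescaling by median ratios.

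The paralog RPS27L, a known p53 target whose protein can replace that of RPS27, was at 62.7, 104 and 126 TPM in PK-1 and at 57.5, 68.9 and 76.4 TPM in Panc-1. It was higher in every treated library, by 0.73 and 1.001 for PK-1 and by 0.26 and 0.40 for Panc-1, and departed from the family in PK-1. RPS27 itself was at 1520, 1714 and 1988 TPM in PK-1 and at 1581, 1390 and 1552 TPM in Panc-1, and so stayed above RPS27L by more than 10-fold in all 6 libraries. RPL39L, another low paralog, was at 51.2, 55.2 and 37.8 TPM in PK-1 and at 130.4, 141 and 114 TPM in Panc-1, and its parent RPL39 was at 2915, 2997 and 3219 TPM and at 2698, 2258 and 2428 TPM. RPL3, parent of RPL3L, lay between 1774 and 2213 TPM in all 6 libraries.

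RPL36A was at 169, 164 and 348 TPM in PK-1 and at 355, 324 and 359 TPM in Panc-1, so that the PK-1 RARγi-2 library stood with Panc-1 and apart from the other PK-1 libraries. The tables also list RPL36A-HNRNPH2, a readthrough transcript that shares exons with RPL36A and runs on into the next gene. This entry was at 211, 211 and 40.9 TPM in PK-1 and at 40.5, 35.1 and 37.9 TPM in Panc-1. The values summed to 380, 375 and 389 TPM in PK-1 and to 396, 359 and 397 TPM in Panc-1, with fold changes of the sum between -0.14 and 0.03. The fold change of 1.04 given for RPL36A in PK-1 RARγi-2 was thus matched by an opposite change of the overlapping entry, and it is uncertain, since how the counting divided their shared reads is not given in the sources used here.

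**Figure D4:**
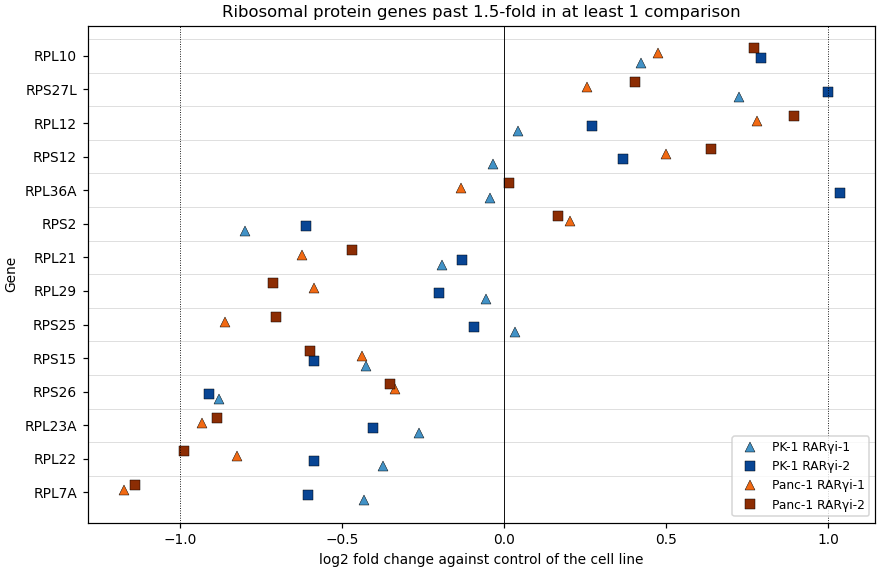
Rows are the 14 ribosomal protein genes past 1.5-fold in at least 1 comparison, and points are their log2 fold changes against the control of the line, triangles for RARγi-1 and squares for RARγi-2, blue for PK-1 and orange for Panc-1; dotted lines mark 2-fold. RPL10 and RPS27L lie right of 0 and RPL7A, RPL22, RPL23A, RPS26, RPS15, RPL29 and RPL21 left of 0 in all 4 comparisons. RPS2 lies left in PK-1 and right in Panc-1. The same signs hold for these genes after rescaling by median ratios. RPL12 also lies right of 0 in all 4 comparisons, but turns to -0.09 in PK-1 RARγi-1 after rescaling.

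A member was said to depart in a comparison where its fold change lay more than 3 robust standard deviations from the family median. This held for RPS26, RPS2 and RPS27L in PK-1 RARγi-1, for RPS26, RPL10, RPS27L and RPL36A in PK-1 RARγi-2, and for RPL7A in both Panc-1 libraries. The members just short of the limit were RPL10 (0.42), RPS2 (-0.61), RPL23A (-0.93) and RPL22 (-0.99) in the same order of comparisons. The limit is wider in Panc-1 because the members there spread more, so that RPL12, with fold changes of 0.78 and 0.89, did not pass it.

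The lines share no library, so their comparisons with the same inhibitor can be set beside each other. With RARγi-1, 39 members were below the control in both lines, 13 above in both and 27 opposite, with a Pearson r of 0.40 and a Spearman rho of 0.45 over 79 members. With RARγi-2, 34 were below in both, 28 above in both and 17 opposite, with an r of 0.63 and a rho of 0.68. Each correlation is a description over members of 1 family in 2 pairs of libraries, and transcript length and base composition of each gene are the same in both lines. Past 1.5-fold in both lines with RARγi-2 were RPL7A and RPS15, both lower, and RPL10, which was higher. RPL22, lower past this limit in Panc-1, fell just short of it in PK-1 (-0.58) and passed it there without a pseudocount (-0.59). After rescaling by median ratios, RPL7A (-0.57) and RPS15 (-0.55) fell just short of 1.5-fold in PK-1, and RPL10 still passed it in both lines. These counts, correlations and shared calls were not taken over all entries, so they do not set the family apart from other genes.

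The members differed more between the control libraries of the lines than between any treated library and its control. On the log2 scale, Panc-1 minus PK-1, the median member was at -0.12, with a robust standard deviation of 0.50, against 0.20 to 0.35 in the treatment comparisons and against 0.86 between the control libraries over other entries of at least 100 TPM. Past 2-fold, 4 members were higher in Panc-1 (15.7% of all entries above the floor in a control library were) and 3 were higher in PK-1 (14.6%). Of other entries of at least 100 TPM, 15% were higher in Panc-1 and 12.7% in PK-1 past this limit. Higher in Panc-1 were RPS16 by 3.56, RPLP2 by 1.85, RPL39L by 1.33 and RPL36A by 1.06. The sum of RPL36A and its readthrough entry, 380 TPM in PK-1 Control and 396 TPM in Panc-1 Control, differed by 0.06, so the call of RPL36A did not hold for the sum and is uncertain. Higher in PK-1 were RPL23, at 4640 TPM against 1022 TPM, RPL19, at 4035 against 1033 TPM, and RPL27, at 1927 against 700.0 TPM. These are all large subunit genes of chromosome 17. The treated libraries of each line kept these levels, with RPL23 between 4446 and 4640 TPM in PK-1 and between 802 and 1022 TPM in Panc-1. Each line is 1 established culture, so what sets the lines apart cannot be told apart from what sets these cultures apart.

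The genes that lie beside these members on the chromosome were taken as the 8 nearest protein-coding genes on each side with a mean of at least 5 TPM, in the gene order of RefSeq. RPS16 (chr19:39433137-39435949) is 3.56 higher in Panc-1 Control, and all 16 of its neighbours, over 913 kb, were also higher there past 2-fold, with a median of 3.73 and a range from 1.78 to 6.60. Among them were FBL, the methyltransferase of the box C/D small nucleolar particles, at 559 TPM in PK-1 Control and 7840 TPM in Panc-1 Control, the proteasome gene PSMC4, at 202 and 3841 TPM, and the elongation factor genes PAF1, at 84.3 and 1600 TPM, and SUPT5H, at 88.0 and 1171 TPM. The RPS16 value thus lay inside the range of its neighbours. DLL3 (1 TPM in PK-1 Control, 193 TPM in Panc-1 Control) and ZNF546 (1 and 18.5 TPM) were at the floor in PK-1 Control, and EID2B (2.51 and 57.2 TPM) was near it. Such genes could enter through Panc-1 alone. The count of 16 and the top of the range, which is DLL3, thus partly rest on the limit.

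The other members showed the same likeness. For RPLP2 (chr11:809967-812876), 15 of 16 neighbours were higher in Panc-1, with a median of 2.13. For RPL23 (chr17:38847860-38853721), 15 of 16 were higher in PK-1, with a median of -1.51. RPL19 (chr17:39200283-39204732) shares many of these neighbours, and 16 of its 16 were higher in PK-1, with a median of -1.56. For RPL27 (chr17:42998273-43002959) they were 15 of 16, with a median of -1.24. CEND1 beside RPLP2 was at the floor in PK-1 Control, and GRB7 beside RPL19 was at the floor in Panc-1 Control. TMEM80 beside RPLP2 (4.39 TPM in PK-1 Control, 19.1 TPM in Panc-1 Control) and GSDMB beside RPL19 (9.21 and 2.65 TPM) were also low in 1 line. Such genes could enter through the other line alone, so these counts and medians partly rest on the limit of 5 TPM. RPL39L, 1.33 higher in Panc-1, had neighbours with a median of 0.13 and did not share this feature. The neighbours of RPL36A had a median of -0.07, away from the 1.06 of RPL36A alone and close to the 0.06 of its sum with the readthrough entry.

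Over the 77 members above the floor with such neighbours, the difference of the member and the median of its neighbours had a Pearson r of 0.86, and 0.79 without RPS16. The same measure over 1529 other entries of at least 100 TPM gave 0.44. These correlations are descriptions, because neighbours share a chromosome segment and close members share neighbours. Neighbours were also taken by their mean over the 6 libraries, so genes low in 1 line could enter through the other. What this adds to r was not tested. For the 4 treatment comparisons, r between the members and their neighbours was 0.12, 0.13, 0.11 and 0.08.

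**Figure D5:**
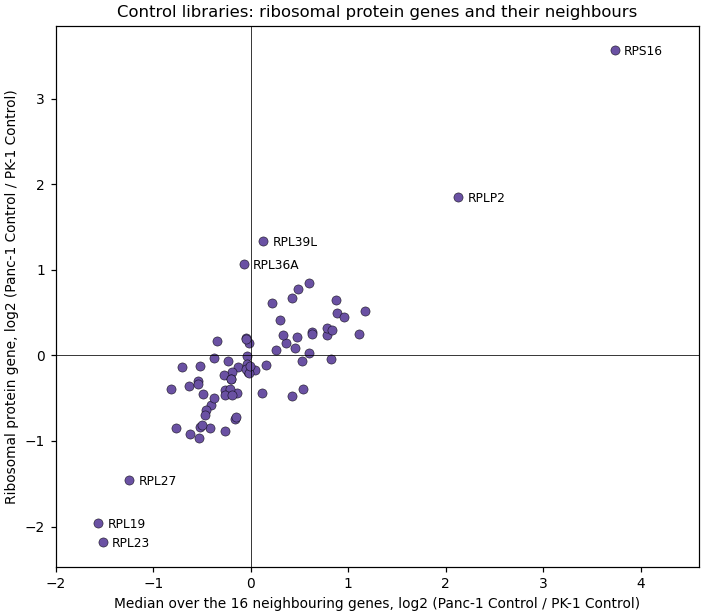
Each point is 1 of 77 ribosomal protein genes. The vertical axis gives its log2 ratio of Panc-1 Control to PK-1 Control and the horizontal axis the median log2 ratio of its 16 neighbouring genes; the 7 members past 2-fold are named. RPS16 and RPLP2 lie at the upper right and RPL23, RPL19 and RPL27 at the lower left, so member and neighbours differ the same way, while RPL39L and RPL36A are high with neighbours near 0; summed with its readthrough entry, RPL36A would lie at 0.06.

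Genes outside the rule that belong to the same machinery were listed by role. Of the 7 listed ribosomal proteins and paralogs outside the rule, 0 were past 2-fold in PK-1, and RPL22L1 alone was past it in Panc-1. RACK1, a signalling scaffold on the small subunit, was at 2660, 2803 and 3358 TPM in PK-1 and at 2712, 4078 and 4698 TPM in Panc-1. Of 15 translation genes with TOP transcripts, such as the elongation factors, the medians were -0.05, -0.20, -0.08 and -0.04, near those of the family. HNRNPA1, which shuttles mRNA, was lower past 2-fold in PK-1 RARγi-2 and TPT1, the tumour protein TCTP, was higher past 2-fold in both RARγi-2 libraries. TPT1 was at 620, 1132 and 1494 TPM in PK-1 and at 317, 581 and 705 TPM in Panc-1, and HNRNPA1 at 1089, 691 and 511 TPM in PK-1 and at 783, 460 and 483 TPM in Panc-1.

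Assembly factors of ribosomal proteins were mostly lower in PK-1 and mixed in Panc-1. Of 9 listed chaperones and loading factors of ribosomal proteins, 8 were above the floor, and their medians were -0.45 and -1.08 for PK-1 and -0.25 and -0.35 for Panc-1. Past 2-fold, 2 of the 8 were lower in PK-1 RARγi-1 (4.85% of all entries), 7 in PK-1 RARγi-2 (12.3%), 0 in Panc-1 RARγi-1 (5.96%) and 2 in Panc-1 RARγi-2 (11%), and 0 were higher in any comparison. RRS1, which brings RPL5 and RPL11 into the large subunit, was at 144, 66.4 and 22.7 TPM in PK-1 and at 138, 72.6 and 68.0 TPM in Panc-1. GRWD1, the chaperone of RPL3, was at 108, 42.6 and 23.4 TPM in PK-1 and at 70.5, 35.1 and 42.8 TPM in Panc-1. RRS1 and GRWD1 were the lowest of the list by mean fold change. RPF2, the partner of RRS1, was at 30.6, 23.6 and 14.3 TPM in PK-1 and at 99.4, 137 and 130.0 TPM in Panc-1, higher than the control in both treated Panc-1 libraries. RPL3, RPL5 and RPL11 themselves stayed within 1.5-fold of the control in all 4 comparisons. Mitochondrial ribosomal protein genes had medians of -0.27 and -0.48 for PK-1 and -0.14 and -0.25 for Panc-1, and 2, 15, 1 and 3 of the 78 were lower past 2-fold and 0 higher, where 4.85%, 12.3%, 5.96% and 11% of all entries were lower.

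Of 14 listed regulators of TOP transcripts and of ribosomal protein genes, 2, 2, 4 and 4 were higher past 2-fold and 0 were lower, where 9.05%, 11.9%, 7.3% and 8.34% of all entries were higher. DDIT4, an inhibitor of mTOR complex 1, was at 415, 1793 and 1712 TPM in PK-1 and at 118, 1406 and 1056 TPM in Panc-1. SESN2, another inhibitor of that complex, was at 17.8, 100.1 and 165 TPM in PK-1 and at 23.4, 297 and 301 TPM in Panc-1. Both were higher than the control past 2-fold in all 4 comparisons. EIF4EBP1, which mTOR complex 1 phosphorylates to free the cap-binding factor, was at 246, 284 and 294 TPM in PK-1 and at 140.2, 338 and 375 TPM in Panc-1. MYC, a transcription factor for many genes of ribosome assembly, was at 139, 163 and 156 TPM in PK-1 and at 78.4, 73.2 and 93.4 TPM in Panc-1, within 1.2-fold of the control throughout.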

How the data were processed

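RNA-seq libraries were made by the authors from total RNA of PK-1 and Panc-1 cells with a stranded mRNA kit, 1 library per condition. The authors deposited log2 values of TPM per entry, with values under 1 TPM raised to 1 TPM (0 on the log2 scale), a floor read from the values. The submitters' processing notes name the build hg38; aligner, counting method and annotation are not given in the sources used here. TPM keep no depth, so precision is unknown. Between 74.6% and 75.6% of the entries of a library lie at the floor.

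Values were made linear again with Python 3.11.15, pandas 2.3.3 and numpy 2.4.6, and figures were drawn with matplotlib 3.10.9. Log2 fold changes used a pseudocount of 1 TPM, which understates the change of low genes, over the 4 comparisons of a treated library with the control library of its line. Lists were taken over entries that 1 or more libraries of the line had above 1 TPM, 14269 in PK-1 and 14184 in Panc-1. Counts past 2-fold, medians and shares are descriptions with no test. A fit of log2 (TPM + 1) on line and treatment was added after seeing the data, with limma 3.58.1 in R 4.3.3 (eBayes with trend) on 15654 entries above 1 TPM in 1 or more of the 6 libraries. Both calculations were tested on simulated data. Gene positions and order and the starts are from RefSeq tables of GRCh38.p14, matched by Entrez ID; 64 of the 81 members were in the table of starts. Small nucleolar RNA hosts are from GENCODE 29.

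The members and lists were chosen with earlier results of these data known. Named members were those that departed in at least 2 comparisons or by level, the 3 highest and 3 lowest by mean TPM, the 3 lowest and 3 highest by mean fold change above 10 TPM, the stalk, RPL5 and RPL11, the paralog pairs, RPS27A, RPSA, RPS6, RPS19, RPS2 and RPS3. Of other lists, at most 3 genes past 2-fold were named. RPL36A, RPL23, RPL19, RPL27, RPS12, RPS15, RPS25, RPL29, RPL21, RACK1, MYC, RPF2, the readthrough entries and the neighbouring genes were named after their values were seen. Alternatives were other pseudocounts, rescaling by median ratios, other limits, filters and totals.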

Additional observations from a re-analysis of the deposited data

Results flagged for a closer look

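For 5 of the named members, both treated libraries of PK-1 lay on one side of their control and both of Panc-1 on the other. The values are the mean log2 fold change of a line and the difference Panc-1 minus PK-1, and the difference was not tested in any of them. RPS2 had a mean of -0.70 for PK-1 and 0.19 for Panc-1, a difference of 0.89. RPS27 had 0.28 in PK-1 and -0.11 in Panc-1, a difference of -0.39, and RPL39 had 0.09 and -0.20, a difference of -0.30. RPS16 had 0.09 and -0.09, a difference of -0.18, and RPS27A had -0.10 and 0.08, a difference of 0.18. After rescaling by median ratios, RPS2 and RPS27 kept their signs in all 4 comparisons, whereas RPS16 and RPL39 changed sign in PK-1 RARγi-1 (to -0.06 and -0.09) and RPS27A in Panc-1 RARγi-1 (to -0.01).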

How the results depend on the processing

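Over the planned and added alternatives, 153 values counted as the same, 36 moved and 13 lost their call. Direction was scored only for RPL10 and RPS15 in the limma fit, where 0 turned. A median or share counted as the same within 0.29 in PK-1 and 0.23 in Panc-1 on the log2 scale. The members' median in PK-1 RARγi-1, which went from -0.10 to -0.23 after rescaling by median ratios, thus counted as the same. Rescaling by median ratios gave 1 member lower past 2-fold in PK-1 RARγi-1 (from 0) and 2 in Panc-1 RARγi-1 (from 1). At a 1.5-fold limit, the members lower were 2, 4, 6 and 6 and those higher 1, 3, 1 and 3, in PK-1 RARγi-1, PK-1 RARγi-2, Panc-1 RARγi-1 and Panc-1 RARγi-2. At 3-fold, 0 were higher in PK-1 RARγi-2 and 0 lower in either Panc-1 library. A limit of 2 robust standard deviations raised the members that departed from 3, 4, 1 and 1 to 5, 9, 5 and 6, and 1.5-fold from the family median gave 5 and 9 in Panc-1. Choices made after seeing the data moved values: without RPS16 the share of Panc-1 Control was 14.1%, and between the control libraries a 1.5-fold limit gave 10 members higher in Panc-1 and 15 in PK-1, a 3-fold limit 2 higher in Panc-1. No symbol starts with MT- and no member symbol is repeated, so both related alternatives equal the reported values. No replicate numbers are given in the labels, and the only block is the cell line: the limma fit with the line as block was added after seeing the data. In it, the 1 member lower with RARγi-2 became 2 without a pseudocount and 5 when only entries reaching 5 TPM somewhere were kept. That filter also took the entries called with RARγi-1 from 0 to 192 lower and 430 higher, with 0 members among them. Rescaling by median ratios gave RPS15 an adjusted p by limma of 0.053 with RARγi-2. With each library left out in turn, which leaves 1 residual degree of freedom, members lower and higher with RARγi-2 ranged from 0 to 0, with adjusted p by limma between 0.088 and 0.29 for RPL10 and between 0.091 and 0.31 for RPS15. The depth is unknown, so no counting error can be given for any value.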

Other observations

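Processed copies of ribosomal protein genes were mostly at the floor. Of 1924 entries with a symbol of a ribosomal protein pseudogene, 17 to 19 per library were above the floor, and together they held 0.443% to 0.748% of the TPM of the family. RPL13AP5 was the highest, at 767, 856 and 889 TPM in PK-1 and 473, 529 and 573 TPM in Panc-1, in the order control, RARγi-1 and RARγi-2. Reads of such copies and of their parent genes can be near identical, and how the counting divided them is not given in the sources used here, so RPL13A and RPL21 values are uncertain to this extent.

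Of the 81 members, 28 host at least 1 small nucleolar RNA, RNAs that guide the modification of ribosomal RNA and are cut from introns. On the log2 scale their medians were -0.06, 0.02, 0.04 and 0.11 for PK-1 RARγi-1, PK-1 RARγi-2, Panc-1 RARγi-1 and Panc-1 RARγi-2, against -0.14, -0.05, -0.06 and -0.05 over the 51 other members above the floor. Hosts were found among members below the control in all 4 comparisons (RPL7A and RPL23A with 4 each) and above it in all 4 (RPL10 and RPL12 with 1 each), and among others (RPS12 with 3, RPS2 with 2). RPL36AL, the intronless relative of RPL36A outside the symbol rule, was at 518, 810 and 912 TPM in PK-1 and at 458, 404 and 484 TPM in Panc-1.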
